A study of Mus musculus with 10 samples.

Results

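Transcripts of skin macrophages were followed as 10 genes, Csf1r, Adgre1, Cd68, Mrc1, Cd163, C1qa, C1qb, C1qc, Ccr2 and Mertk, listed by name and matched by symbol to 10 of the 46078 genes in the count table. Macrophages are resident phagocytes that clear dying cells, microbes and spent proteins, and in the dermis they are among the most abundant immune cells. Their survival depends on signals through the CSF1 receptor, and they come both from precursors laid down before birth and from blood monocytes, which use the chemokine receptor CCR2 to reach tissue. Dermal macrophages carry scavenging receptors and make the recognition subunit of the classical complement pathway, C1q. Several of the genes are shared with neighbouring cells. Langerhans cells of the epidermis also use the CSF1 receptor and carry the product of Adgre1, and some T cells carry CCR2.

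The libraries came from whole back skin of C57BL/6 mice raised free of specific pathogens, killed at 21 days of age. The SA group was colonised with Staphylococcus aureus SF8300 and the SE group with Staphylococcus epidermidis Tü3298, each given as 100 µl of suspension on the skin every other day from day 3 to day 19. An 8 mm punch of lightly defatted skin was used, each group holds 5 libraries, and no uncolonised skin was analysed here. Whether each library is its own mouse is not in the labels, so tests weigh differences only against library spread, which may be technical. Reads on genes lay between 21140654 and 25417851 per library. All 10 genes were read in all 10 libraries, and the lowest count was 335 reads, for Cd68 in SA library 1. SE libraries 3, 4 and 5 stood apart, at 37.9, 41.8 and 54.3 on a first principal component that held 45.2% of the variance, against -32.6 to -9.34 for the other 7. The summed level of the 6 hair shaft genes found of 7 listed lay between 49.8 and 351 CPM in those 3 libraries and between 0.606 and 4.87 CPM in the other 7. CPM are reads scaled to library size, here after TMM.

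Sequences just upstream of 4 genes are shown, those of C1qb, C1qc and Mrc1 because they hold the run AGGAAG, and that of Mertk as one of the windows without it. They are RefSeq promoter windows of GRCm38.p6 with the bases that fall inside the GENCODE gene left out, written 5′ to 3′ on the gene's strand. Capitals mark AGGAAG on either strand (CTTCCT where it lies on the other strand), a run found in binding sites of ETS factors such as PU.1, and the longer PU.1-type run GAGGAAGT that holds it. The windows lie at chr4:136886201-136886450 (minus strand) for C1qb, chr4:136893066-136893164 (minus) for C1qc, chr2:14229164-14229391 (plus) for Mrc1 and chr2:128698665-128698914 (plus) for Mertk.
C1qb: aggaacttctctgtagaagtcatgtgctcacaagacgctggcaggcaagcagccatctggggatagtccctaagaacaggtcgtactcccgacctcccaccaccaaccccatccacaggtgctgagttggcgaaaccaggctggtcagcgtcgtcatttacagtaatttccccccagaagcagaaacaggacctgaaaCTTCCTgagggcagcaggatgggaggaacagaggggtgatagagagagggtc
C1qc: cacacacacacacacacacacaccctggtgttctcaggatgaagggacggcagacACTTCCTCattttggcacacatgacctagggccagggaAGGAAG
Mrc1: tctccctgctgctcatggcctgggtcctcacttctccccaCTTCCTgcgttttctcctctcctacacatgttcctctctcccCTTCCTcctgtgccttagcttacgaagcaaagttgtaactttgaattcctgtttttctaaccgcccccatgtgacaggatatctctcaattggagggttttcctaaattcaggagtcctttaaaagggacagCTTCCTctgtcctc
Mertk: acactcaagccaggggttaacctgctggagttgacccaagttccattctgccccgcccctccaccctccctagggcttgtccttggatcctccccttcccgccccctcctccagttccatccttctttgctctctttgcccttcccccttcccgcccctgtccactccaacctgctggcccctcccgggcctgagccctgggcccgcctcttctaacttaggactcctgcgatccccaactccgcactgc

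Windows of 250 bases were in the RefSeq table for 7 of the 9 genes that lie outside chromosome 18, and 3 of those 7, C1qb, C1qc and Mrc1, held AGGAAG, against 29.5% of 32851 windows of the same length over all promoters. The Cd68, Cd163, Ccr2 and Mertk windows did not hold it. Whether genes that hold the run vary together more than the rest was not tested. GAGGAAGT was in the C1qc window alone, against 2.44% of all windows, and it lay at bases -195 to -188 from the RefSeq start. With both strands searched, TGANTCA and TTGCNNAA were each found in the Cd68 window alone (6.75% and 9.56% of all windows) and TGCTGA in the C1qb window alone (16.1%). The run CANNTG was in 6 of the 7 (66.2%), and TATAAA was in none of them (12.4%). A CANNTG match overlaps TGCTGA in C1qb, and another overlaps TGANTCA in Cd68. The counts use all 250 bases of each window, also those inside the GENCODE gene. For C1qc 99 and for Ccr2 only 17 of them lie before the gene. The CANNTG match of Ccr2, at -108 to -103, lies inside it. These are matches of letters and no measure of binding.

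All 10 genes are annotated as protein-coding in GENCODE M21 for GRCm38. Mrc1 (ENSMUSG00000026712) and Mertk (ENSMUSG00000014361) lie on chromosome 2, at 14229392 to 14332057 and 128698956 to 128802894. Cd163 (ENSMUSG00000008845) lies on chromosome 6, 124304656 to 124330527, and Ccr2 (ENSMUSG00000049103) on chromosome 9, 124101950 to 124113557. Cd68 (ENSMUSG00000018774) lies on chromosome 11, 69664213 to 69666153, Adgre1 (ENSMUSG00000004730) on chromosome 17, 57358691 to 57483527, and Csf1r (ENSMUSG00000024621) on chromosome 18, 61100598 to 61132149.

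Macrophage transcripts did not differ past the threshold between SA and SE skin. With edgeR's quasi-likelihood test, 0 of the 10 had an adjusted p below 0.05 (Benjamini-Hochberg over 16909 genes), where 0.0769% of all genes tested did. DESeq2 called 0 of them too, and 1.75% of its genes. At an unadjusted p under 0.05, 1 of the 10 passed in edgeR (Mertk) and in DESeq2, and 0 in limma voom, against 11.1%, 8.11% and 10.2% of all genes tested. Of the 10, 7 had a positive and 3 a negative log2 fold change of SA over SE, with a median of 0.13, beside -0.01 over all genes tested. The direction depended on which SE libraries were used. With SA 1 left out, 8 were positive and 2 negative at a median of 0.26. Without SE 1, 9 of the 10 were positive at a median of 0.39, and 4 (Adgre1, C1qc, Ccr2 and Mertk) had an unadjusted edgeR p under 0.05. Without SE libraries 3, 4 and 5, 3 were positive and 7 negative at a median of -0.05, and 0 had such a p. The share of all genes with such a p was not taken in either fit, so these counts have no background. The fit without SE 1 called 225 genes over the whole table, against 13 in the main fit. For each of the 10 the SA and SE libraries overlapped, while 2.05% of all tested genes had groups that did not. In whole skin, fewer macrophages and less RNA per macrophage cannot be told apart. The authors' deposited table, which came from DESeq2, also held 0 of the 10 at an adjusted p under 0.05 and gave Mertk a p of 0.0175 and an adjusted p of 0.296.

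**Figure D1:**
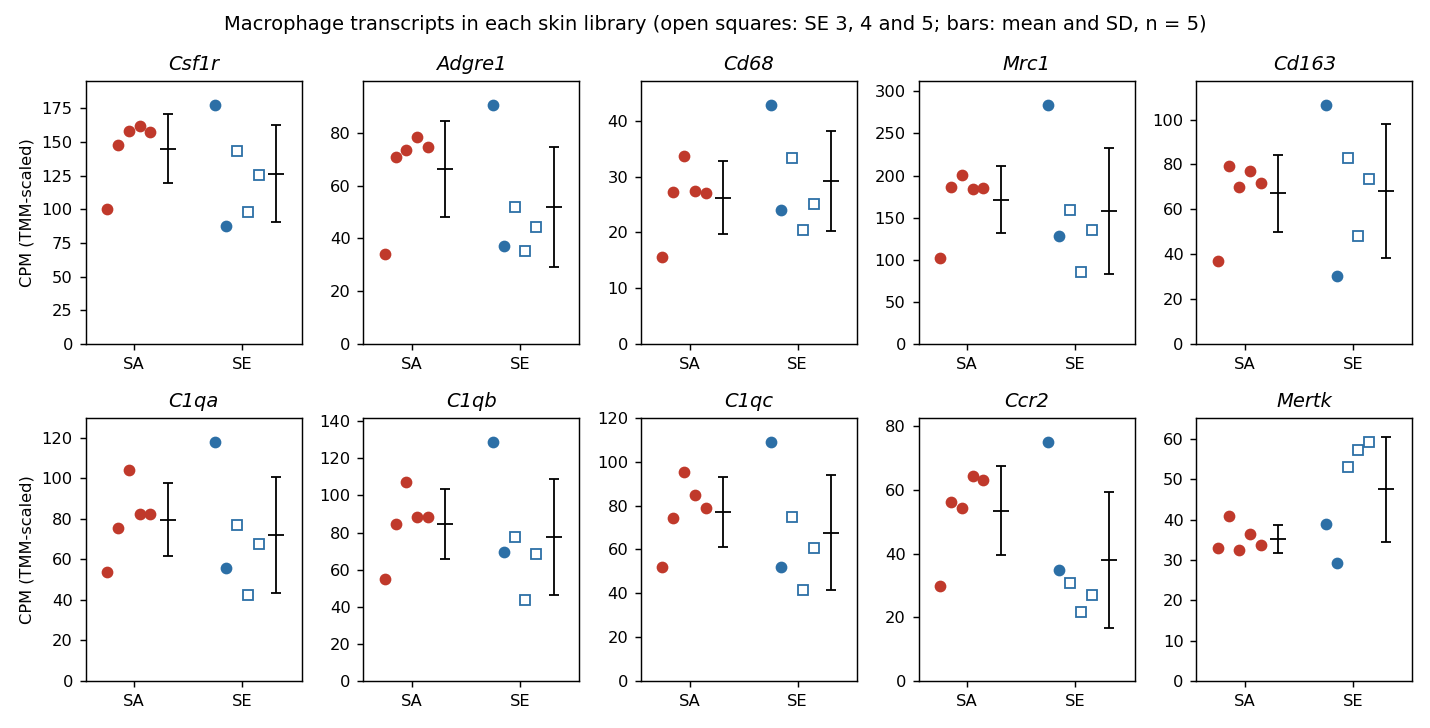
TMM-scaled CPM (y axes, from 0) of the 10 macrophage genes in the SA (red) and SE (blue) libraries, 1 point per library in replicate order, with mean and SD (n = 5 each) beside them. Open squares are SE libraries 3, 4 and 5. SA 1 is at the bottom of the SA group for 9 of the 10 panels and SE 1 at the top of the SE group for 9, while Mertk is highest in the open squares.

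The spread lay between libraries rather than between groups. Summed over the 10 genes the level was 512, 842, 928, 885 and 862 CPM in SA libraries 1 to 5 and 1171, 548, 783, 494 and 686 CPM in SE libraries 1 to 5. The group means were 806 ± 167 and 737 ± 268 CPM (SD, n = 5 each), and the highest library of all and the lowest were both SE. SE 1 held the highest level of all 10 libraries for 9 of the genes. SA 1 was among the lowest 3 libraries for 10 genes, SE 4 for 9 and SE 2 for 8. The same 3 libraries were also low in the list of fibroblast genes (5 of 5 found, none at 0 reads), whose summed level was 24540 CPM in SA 1, 30760 in SE 2 and 24500 in SE 4, against 31270 to 42460 in the other 7. Per 1000 CPM of that fibroblast sum, the 10 genes gave 20.9 to 23 CPM in SA and 17.8 to 27.6 CPM in SE, a 1.55-fold span over all libraries where the plain sum spanned 2.37-fold. Most of the fibroblast sum came from the collagen genes Col1a1 and Col1a2. Their means were 15760 and 17810 CPM in SA and 13600 and 16410 CPM in SE. The ratio to this sum was taken after the values had been seen, and the part of fibroblast content in the result was not tested.

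**Figure D2:**
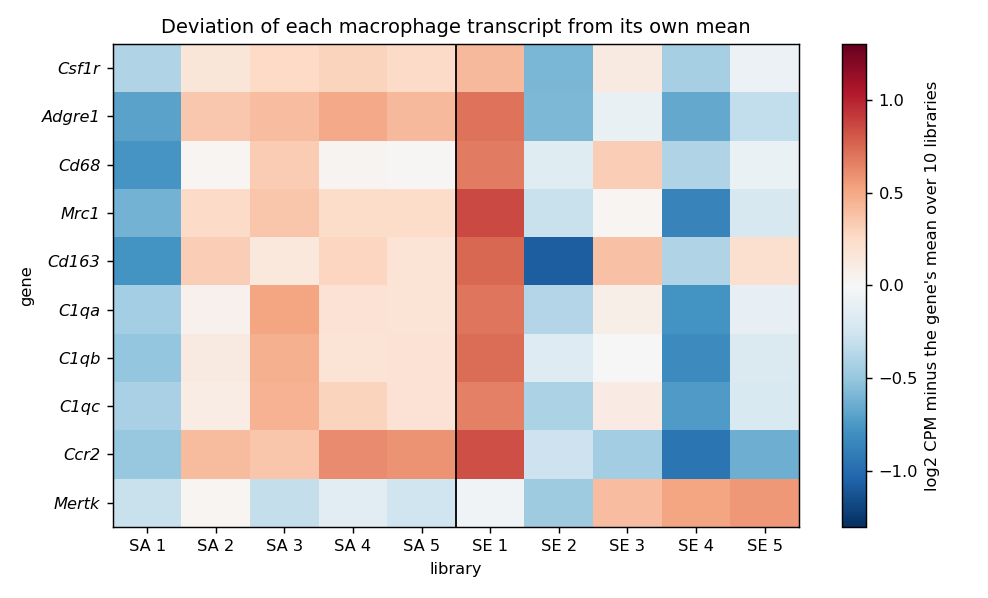
Log2 CPM of each macrophage gene (rows) in each library (columns) minus that gene's mean over the 10 libraries, from blue (below) to red (above), with a line between SA and SE. Columns SA 1, SE 2 and SE 4 are blue for nearly all rows and SE 1 is red for all but Mertk, whose row is red in SE 3, SE 4 and SE 5.

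Csf1r encodes the receptor through which CSF1 and interleukin-34 keep macrophages alive. Its level was 100.5, 147, 158, 161 and 158 CPM in SA libraries 1 to 5 and 177, 87.7, 143, 98.2 and 125 CPM in SE libraries 1 to 5. Apart from SA 1 the SA libraries lay close together, and the SE libraries reached both above and below them. The log2 fold change was 0.20 ± 0.187 (± gives the standard error of log2 fold changes throughout, edgeR adjusted p = 0.702, 95% interval -0.21 to 0.61). Of its exonic bases, 15.1% overlap Hmgxb3 on the opposite strand, and whether reads were counted by strand is not given, so its level is uncertain. The other 9 genes share no exonic base with another gene.

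Of the receptor's ligands, Il34 and Csf1 belong to a list of 11 growth and lineage factors in which 0 were called. The 3 with the smallest p were Runx1 (-0.75 ± 0.189), Maf (-0.25 ± 0.0825) and Nr1h3 (0.31 ± 0.132), at edgeR adjusted p of 0.169, 0.316 and 0.421. Runx1, a transcription factor of blood cells and of hair follicles, was at 27.1 to 28.5 CPM in SA and 29.5 to 69.2 CPM in SE, so its groups did not overlap. The SE values were 29.5 and 34.1 CPM in SE 1 and 2 and 50.3, 50.4 and 69.2 CPM in SE 3, 4 and 5, the libraries with the high hair shaft sums, whose part in it was not tested. Without those 3 libraries the log2 fold change of Runx1 was -0.19 ± 0.0895 (edgeR adjusted p = 0.542), and without SE 1 it was -0.88 ± 0.154, which passed (adjusted p = 0.0309). DESeq2 on all libraries also called Runx1 (-0.75 ± 0.195, adjusted p = 0.0135).

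Adgre1 encodes F4/80, the adhesion-family surface receptor widely used to stain mouse macrophages. Levels were 34.2, 70.6, 73.4, 78.2 and 74.4 CPM in SA and 90.4, 37.1, 51.9, 35.2 and 44.5 CPM in SE. In 4 SA libraries they exceeded every SE library but SE 1, while SA 1 was the lowest of all 10. The log2 fold change was 0.35 ± 0.274 (edgeR adjusted p = 0.637, 95% interval -0.25 to 0.95). Without SE libraries 3, 4 and 5, which leaves 5 SA and 2 SE libraries, it was 0.05 ± 0.34, and without SE 1 it was 0.65 ± 0.215 (edgeR adjusted p = 0.153). Cd68 encodes a membrane protein of lysosomes. It was read at 15.7, 27.3, 33.8, 27.4 and 27 CPM in SA and at 42.8, 24.1, 33.4, 20.5 and 25.2 CPM in SE, with a log2 fold change of -0.15 ± 0.22 (edgeR adjusted p = 0.801, 95% interval -0.63 to 0.32). Relative to Csf1r in the same library, Cd68 was at 0.156 to 0.214 in SA and 0.201 to 0.275 in SE, so that these ranges overlapped slightly.

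Of 14 other genes common to myeloid cells, 12 were positive, 2 negative and 0 called, at a median log2 fold change of 0.14. Smallest in p were Ptpn6 (0.14 ± 0.0894), Lgmn (-0.24 ± 0.155) and Tyrobp (0.25 ± 0.199), at edgeR adjusted p of 0.567, 0.583 and 0.64. Their summed level was 651 CPM in SA 1 and 947 to 1065 CPM in the other 4 SA libraries, and 1390 CPM in SE 1 against 579 to 839 CPM in the other 4 SE libraries. The list's median was -0.13 without SE libraries 3, 4 and 5, with 13 of the 14 negative, and 0.36 without SE 1, with 13 of the 14 positive.

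Mrc1 and Cd163 encode endocytic receptors of resident macrophages, the first for mannose-bearing glycoproteins and collagen fragments and the second for haemoglobin bound to haptoglobin. Mrc1 was at 102, 186, 201, 184 and 185 CPM in SA and 284, 128, 159, 85.4 and 135 CPM in SE. The SE group held both the highest and the lowest library, a 3.32-fold span. The log2 fold change was 0.12 ± 0.278 (edgeR adjusted p = 0.885, 95% interval -0.49 to 0.72), and it turned to -0.26 ± 0.291 without SE libraries 3, 4 and 5, was negative without SE 4 alone and was 0.44 ± 0.207 without SE 1.

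Cd163 spanned the widest range of the 10, 3.53-fold. It had 37, 79.4, 70.1, 77.2 and 71.8 CPM in SA libraries and 106.5 CPM in SE 1, with 30.2, 82.8, 48.4 and 73.4 CPM in SE 2 to SE 5. Group means were nearly the same, at 67.1 ± 17.3 and 68.2 ± 29.8 CPM, and the log2 fold change was -0.02 ± 0.299 (edgeR adjusted p = 0.98). The 95% interval of -0.68 to 0.63 leaves room for a fold between 0.626 and 1.54, so like levels are not shown. Cd163 did not keep a fixed proportion to Mrc1. Relative to Mrc1 it was at 0.349 to 0.427 in SA, 0.375 in SE 1, 0.235 in SE 2 and 0.52, 0.566 and 0.544 in SE 3, 4 and 5.

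Cd163l1 is the paralogue of Cd163 and is known from gamma-delta T cells rather than macrophages. It was read at 19 to 26.7 CPM in SA and 3.02 to 6.63 CPM in SE, a log2 fold change of 2.54 ± 0.215 (edgeR adjusted p = 0.00102). Its lowest library was SE 1, at 3.02 CPM, where Cd163 was highest, but SE 2, where Cd163 was lowest, had 3.16 CPM. Of genes for handling haemoglobin and haem, Hmox1, which breaks down haem, had -0.24 ± 0.0925 (edgeR adjusted p = 0.383) and Hp, the haptoglobin gene, -0.44 ± 0.222 (adjusted p = 0.491). Their list of 8 also holds Cd163l1, as the paralogue of Cd163 and not for a known part in haem handling. Of the 7 tested, Cd163l1 was the 1 called. Red cell genes (5 of 5 found, none at 0 reads) summed to 329 to 578 CPM in SA, 246 to 518 in SE 1 and 2 and 82.3 to 132 in SE 3 to 5, and their part in these values was not tested.

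Other surface genes of resident macrophages summed to 420 CPM in SA 1 and 654 to 727 CPM in the other 4 SA libraries. In SE they summed to 996 CPM in SE 1 and 372 to 598 CPM in SE 2 to SE 5, so SA 1 and SE 1 again stood at the ends of their groups' ranges, SA 1 low and SE 1 high. Of 17 listed, 16 were tested and 0 called, with 11 positive and 5 negative and a median of 0.10. Cd14, the lipopolysaccharide co-receptor gene, had 0.54 ± 0.276, the lectin gene Mgl2 0.33 ± 0.232 and the hyaluronan receptor gene Lyve1 -0.28 ± 0.231 (edgeR adjusted p = 0.491, 0.599 and 0.651). The median was -0.31 without SE libraries 3, 4 and 5, with 12 of 16 negative, and 0.43 without SE 1, with 14 of 16 positive.

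C1qa, C1qb and C1qc encode the chains of C1q, which binds immune complexes and dying cells and starts the classical pathway. They lie side by side on chromosome 4, minus strand, from 136880129 to 136898803 in GRCm38, in the order C1qb, C1qc and C1qa with gaps of 3616 and 2851 bases and no other protein-coding gene between them. C1qa was at 53.6, 75.4, 104, 82.5 and 82.2 CPM in SA and 118, 55.9, 76.7, 42.4 and 67.4 CPM in SE. C1qb was at 54.9, 84.6, 107, 88.2 and 88.6 CPM in SA and 129, 69.3, 77.6, 43.9 and 68.2 CPM in SE. C1qc was at 51.8, 74.5, 95.2, 84.7 and 78.9 CPM in SA and 109, 52.2, 74.7, 41.6 and 60.5 CPM in SE. All 3 were highest in SE 1, and among the SA libraries highest in SA 3 and lowest in SA 1.

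Their proportions held while their levels moved. The ratio of C1qc to C1qa CPM stayed within 0.897 and 1.03 in all 10 libraries, a coefficient of variation of 4.05%, while C1qa itself spanned 2.79-fold. The ratio of C1qb to C1qa lay between 1.01 and 1.24, with SE 2 the highest (coefficient of variation 6.5%). Log2 fold changes of SA over SE were 0.14 ± 0.243 for C1qa, 0.13 ± 0.246 for C1qb and 0.19 ± 0.235 for C1qc (edgeR adjusted p = 0.84, 0.861 and 0.777). Without SE libraries 3, 4 and 5 they were -0.13 ± 0.271, -0.22 ± 0.249 and -0.06 ± 0.264, and C1qb was also negative without SE 4 alone. Without SE 1 they were 0.39 ± 0.194, 0.39 ± 0.192 and 0.43 ± 0.187, at edgeR adjusted p of 0.299, 0.299 and 0.25.

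**Figure D3:**
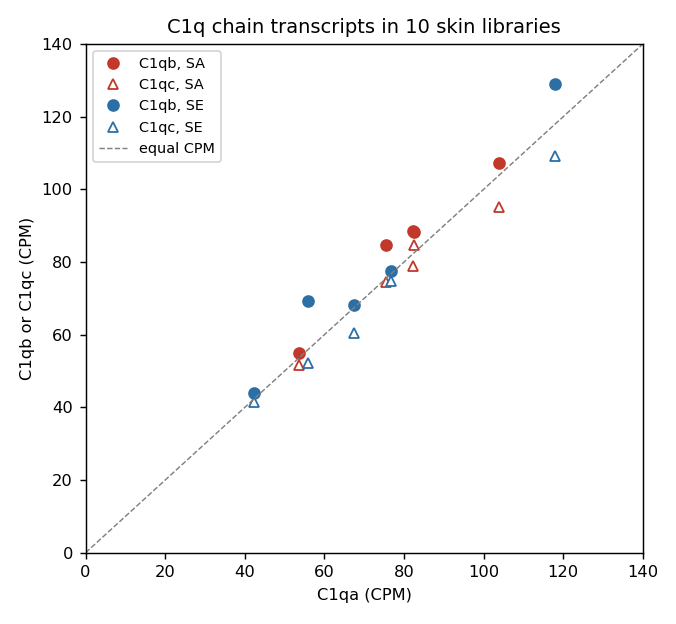
CPM of C1qb (circles) and C1qc (open triangles) against C1qa in the 10 libraries, SA red and SE blue, with a dashed line of equal CPM. Both follow C1qa from SE 4, near 42 CPM, to SE 1, at 118 CPM, and C1qb sits slightly above the line in every library.

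Proteases that join C1q in the C1 complex and the components after it were listed as 8 genes, of which 0 were called, with 5 positive and 3 negative. C3, the component on which all complement pathways meet, was at 132 to 256 CPM in SA and 32.3 to 248 CPM in SE, with a log2 fold change of 0.98 ± 0.428 (edgeR adjusted p = 0.434). The anaphylatoxin receptor genes C5ar1 and C3ar1 had -0.33 ± 0.251 and 0.17 ± 0.294 (edgeR adjusted p = 0.633 and 0.841).

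Ccr2, the receptor by which monocytes leave the blood, had the largest positive difference of the 10. It was at 29.8 CPM in SA 1 and at 56, 54.2, 64.2 and 63.1 CPM in SA 2 to SA 5. SE 1 had 75.1 CPM, and SE 2 to SE 5 had 34.9, 30.7, 21.8 and 27 CPM. So 4 SA libraries lay above 4 SE libraries, with SA 1 and SE 1 crossing over. The log2 fold change was 0.49 ± 0.311 (edgeR adjusted p = 0.569, 95% interval -0.18 to 1.17). It was 0.90 without SE 1 (adjusted p = 0.0652) and was -0.04 ± 0.305 without SE libraries 3, 4 and 5.

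T cell genes, some of whose carriers also bear CCR2, were positive for 7 of 7 members, and the delta chain gene Trdc was the 1 called (0.73 ± 0.102, edgeR adjusted p = 0.022). The adjusted p of Trdc rose above the threshold without any 1 SA library or without SE 5 (0.0621 to 0.105), with a replicate block (0.267) and with a covariate for libraries holding more reads of the Y-linked Ddx3y than of Xist (0.0501). Its log2 fold change moved little in those fits, between 0.70 and 0.74. Their summed level was 51.5 to 57.1 CPM in SA and 33.2 to 43.4 CPM in SE, with none at 0 reads, and their part in the Ccr2 values was not tested. In SE 1, the library highest for Ccr2, that sum was 36.1 CPM. Chemokine genes, CCR2 ligand genes among them, and monocyte genes were listed as 10. Of these 9 were tested, 9 were positive and 0 were called, at a median of 0.27. Ccl8, a chemokine made by skin macrophages, had 0.41 ± 0.259, the monocyte gene Plac8 0.48 ± 0.353 and Ear2 0.35 ± 0.286 (edgeR adjusted p = 0.569, 0.623 and 0.651). Without SE libraries 3, 4 and 5 the list's median was -0.19, and without SE 1 it was 0.45.

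Mertk encodes a receptor kinase that recognises dying cells through the bridging proteins Gas6 and protein S, and it departed from the other 9. Levels were 32.9, 40.9, 32.4, 36.4 and 33.6 CPM in SA and 38.8, 29.2, 53.2, 57.2 and 59.3 CPM in SE. SE 1 and SE 2 lay within or below the SA range, and SE 3, 4 and 5 lay above all 5 SA libraries. The log2 fold change was -0.43 ± 0.171 (edgeR adjusted p = 0.399, 95% interval -0.80 to -0.06), which did not pass over all genes although the unadjusted edgeR p across all genes was 0.0273. It was -0.56 without SE 2 (adjusted p = 0.0563) and turned to 0.06 ± 0.131 without SE libraries 3, 4 and 5 (adjusted p = 0.934). The high values stood in the same libraries as the high hair shaft sums given above, whose part in them was not tested.

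**Figure D4:**
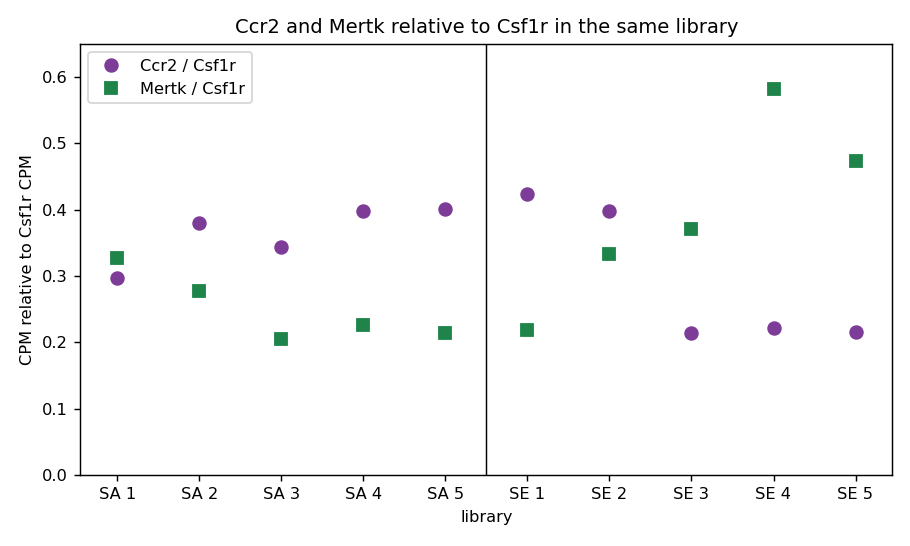
CPM of Ccr2 (purple circles) and Mertk (green squares) divided by Csf1r CPM in the same library, for SA 1 to 5 and SE 1 to 5. In SE 3, 4 and 5 Mertk sits at 0.371 to 0.583 and Ccr2 at 0.214 to 0.222, and in the other 7 libraries at 0.205 to 0.333 and 0.297 to 0.424.

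Relative to Csf1r, Ccr2 and Mertk went opposite ways in SE libraries 3, 4 and 5. Ccr2 was at 0.214, 0.222 and 0.216 of Csf1r there, and at 0.297 to 0.424 in the other 7 libraries. Mertk was at 0.371, 0.583 and 0.473 there and at 0.205 to 0.333 elsewhere, so neither pair of ranges overlapped. These libraries were set apart by a component that includes all genes, and no test was made of them. The share of all genes or ratios that separate SE 3, 4 and 5 from the other 7 was not taken. The ranges therefore have no background. Of 10 genes for the clearance of dying cells, 9 were negative, 1 positive and 0 called, at a median of -0.10. The ligand gene Gas6 was at 330 to 407 CPM in SA and 266 to 673 CPM in SE (-0.26 ± 0.252), and Itgav and Mfge8 had -0.15 ± 0.103 and -0.12 ± 0.0916 (edgeR adjusted p = 0.711, 0.6 and 0.644).

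**Figure D5:**
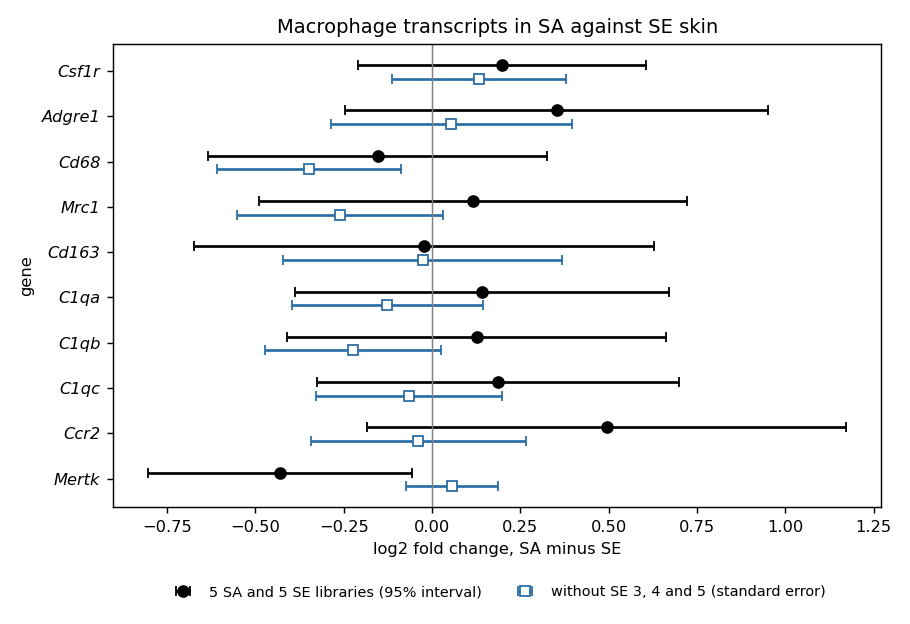
Log2 fold change of SA over SE (x axis) for the 10 genes (y axis). Black circles use all 10 libraries with 95% intervals, and open blue squares leave out SE 3, 4 and 5, with standard errors; Mertk moves from -0.43 to 0.06 and Ccr2 from 0.49 to -0.04.

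All pairs of the genes correlated positively over the 7 libraries other than SE 3, 4 and 5. In SE 3, 4 and 5 Mertk was at 53.2 CPM or more, against at most 40.9 CPM elsewhere. Ccr2 was at 30.7 CPM or less there, against 29.85 to 75.1 CPM elsewhere. Signs over all 10 libraries may therefore differ, and the 45 pairs were not taken over them. Correlations of log2 CPM were taken over the 7 libraries other than SE 3, 4 and 5, which form a separate cluster, for all 45 pairs, and all 45 were positive, from 0.41 to 0.99 with a median of 0.91. By exact two-sided permutation tests of Pearson's r 36 of the 45 passed an adjusted p of 0.05, and of the 9 that did not, 8 involved Mertk and the other was Csf1r with Cd68. By Spearman's rho 22 passed, Csf1r with Cd68 among them (rho = 0.89, adjusted exact permutation p = 0.0346), and 21 passed by both. The share of other gene pairs that would pass over these 7 libraries was not taken, so these counts have no background. The pair of Mertk that passed was Cd163 with Mertk, by r and by rho (adjusted exact permutation p = 0.0352 and 0.0304). Cd68 and C1qb had r = 0.98 and rho = 0.89 (exact permutation p = 0.000794 and 0.0123, adjusted 0.0067 and 0.0346, r = 0.96 without the 2 farthest). Cd68 and Mrc1 had r = 0.96 and rho = 0.89 (exact permutation p = 0.00437 and 0.0123, adjusted 0.0109 and 0.0346, r = 0.78 without the 2 farthest), and C1qb and C1qc had r = 0.96 and rho = 0.96 (exact permutation p = 0.000397 and 0.00278, adjusted 0.00595 and 0.0208, r = 0.96 without the 2 farthest). C1qa and C1qc had r = 0.99 and rho = 1 (exact permutation p = 0.000198 and 0.000397, adjusted 0.00595 and 0.0179), and r = 0.98 without the 2 libraries farthest from the median. Adgre1 and Ccr2 had r = 0.99 and rho = 0.96 (exact permutation p = 0.000595 and 0.00278, adjusted 0.0067 and 0.0208, r = 0.93 without the 2 farthest). Some pairs leaned on the extreme libraries. For C1qa and Ccr2, r was 0.88 and rho 0.79 (exact permutation p = 0.0153 and 0.048, adjusted 0.0208 and 0.0864), and r = 0.48 without the 2 farthest. Mertk and Cd68 had r = 0.41 and rho = 0.43 (exact permutation p = 0.364 and 0.354, adjusted 0.364 and 0.379, r = 0.14 without the 2 farthest). All values of a library share its scaling and its tissue piece, so the points of different pairs are not independent.

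Genes whose log2 CPM was most like that of 4 of the 10 were taken over all 10 libraries, as a description. For Csf1r they were Hexa, Arsb, Unc93b1, C1ra and Antxr2, with r of 0.98, 0.98, 0.98, 0.98 and 0.97. For C1qa they were C1qc, Pld4, C1qb, Mrc1 and Chst12, at 0.99, 0.99, 0.98, 0.97 and 0.97. Genes most like Cd163 included Clec10a, Gsn, Il1rl1 and Gpc3, at 0.99, 0.97, 0.97 and 0.97. Ccr2 was followed by Rac2, Selplg, Kifap3, Naip2 and Ephb2, at 0.99, 0.98, 0.97, 0.97 and 0.97. Other genes of the set took 3 of the 5 places for C1qa and none for Csf1r, Cd163 or Ccr2.

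Per kilobase of annotated exon, the order of mean levels over the 10 libraries was C1qb, C1qa, C1qc, Mrc1, Csf1r, Cd68, Adgre1, Cd163, Mertk and Ccr2. C1qb, at 74.6 ± 22.7 CPM per kilobase, and C1qa, at 72.9 ± 22.1 (SD, n = 10), did not differ beyond their spread, since C1qb was the higher in 5 of 10 libraries. C1qa exceeded C1qc (37.5 ± 10.9), C1qc exceeded Mrc1 (25.9 ± 8.95) and Adgre1 (18.2 ± 6.4) exceeded Cd163 (12.4 ± 4.21) in 10 of 10 libraries. Mrc1 over Csf1r (23.5 ± 5.36), Csf1r over Cd68 (22.1 ± 6.01) and Cd68 over Adgre1 each held in 7 of 10, and Cd163 over Mertk (9.54 ± 2.55) and Mertk over Ccr2 (6.76 ± 2.79) in 6 of 10. Exons of all annotated transcripts were merged for the length, which lowers the value of a gene with long alternative ends.

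Genes listed for macrophage activation ranged from near 0 to levels above those of Cd68. Which cells of the whole skin held these transcripts was not tested. The resistin-like gene Retnla was at 55 ± 21 CPM in SA and 50.6 ± 19.6 CPM in SE, the arginase gene Arg1 at 30.8 ± 5.67 and 33 ± 8.67 CPM, and the co-stimulatory gene Cd86 at 13.5 ± 2.6 and 12.9 ± 3.74 CPM (SD, n = 5 each). Of 12 listed, Il6, Il10, Il12b and Ccl17 were under the expression filter, and of the 8 tested 0 were called, with 6 positive and 2 negative. Il1b had 1.64 ± 0.445, Tnf 0.55 ± 0.341 and Nos2 0.32 ± 0.214 (edgeR adjusted p = 0.201, 0.564 and 0.594), at means of 4.07 ± 3.18, 2.1 ± 0.935 and 2.56 ± 0.558 CPM in SA. Among other myeloid cells, Langerhans cell genes (7 of 7 found, none at 0 reads) summed to 1357 to 1532 CPM in SA and 1179 to 1493 CPM in SE, with 4 positive, 3 negative and 0 called. The Langerhans lectin gene Cd207 was at 23.9 to 26.8 CPM in SA and 18.9 to 21.9 CPM in SE, so its groups did not overlap, with a log2 fold change of 0.29 ± 0.0735 that did not pass (edgeR adjusted p = 0.17). The antigen presentation gene H2-Ab1 had 0.30 (95% interval 0.03 to 0.57), and the adhesion gene Epcam, which keratinocytes of the hair follicle also carry, had -0.40 ± 0.192, at 97 ± 6.5 CPM in SA and 128 ± 42.1 CPM in SE (edgeR adjusted p = 0.419 and 0.468). Dendritic cell genes (9 of 9, none at 0) summed to 46.5 to 78 CPM in SA and 44.3 to 86.3 CPM in SE, and Cd209a had 0.77 ± 0.251 (edgeR adjusted p = 0.311). The part of these cells in the levels of the 10 genes was not tested.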

How the data were processed

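RNA of whole skin was sequenced in 10 libraries, 5 per group, grouped by sample title. Counts are whole reads per Ensembl gene, which the authors deposited after alignment to GRCm38 with STAR 2.4.2a and counting with HTSeq 0.6.1p1, per the submitters' processing notes. Which annotation was used and whether strand was used are not given in the sources. The table held 46078 genes and 5 rows that name no gene, which were left out. Those rows took 30.5% to 34.6% of listed reads. The authors' deposited comparison from DESeq2 gives log2 fold changes, a Wald score, p-values and adjusted p-values, and is quoted only as theirs. Symbols came from it for 45349 genes and from GENCODE M21 for 46.

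The test was edgeR 4.0.16 under R 4.3.3 (filterByExpr with minimum count 10, which left 16909 genes, TMM, quasi-likelihood test without covariates, two-sided, Benjamini-Hochberg, threshold 0.05). Fold changes carry a prior count of 0.125, and 95% intervals use the test's degrees of freedom. At this depth a gene at 1 CPM has over 20 reads, and 5 libraries a group limit the precision. DESeq2 1.42.0, limma 3.58.1 voom, other scalings and filters, a replicate block, a covariate for Ddx3y above Xist and leaving out libraries were the alternatives. The main edgeR fit, limma voom and DESeq2 were also run on simulated data, and the other alternatives were not. Replicate pairs differed by more than sampling noise (chi-square per degree of freedom at least 5.44).

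The 10 genes and the lists were chosen with earlier results of these data known. Named from each list were genes past the threshold and the 3 with the smallest p, and for likeness the 5 highest Pearson r among genes of at least 5 CPM. Not every gene this rule takes is printed.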

Additional observations from a re-analysis of the deposited data

Results flagged for a closer look

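A library far from the others of its group was found in 5 of 20 sets of 5 values (10 genes in 2 groups), by Dixon's test with a critical value of 0.71. Chance gives such a value in about 1 of 20 sets, and since the 10 genes move together the 5 are not separate events. In 4 of them SA 1 was the low library, at 100.5 CPM for Csf1r, 34.2 CPM for Adgre1, 101.7 CPM for Mrc1 and 36.98 CPM for Cd163. The other was Ccr2 in SE 1, at 75.14 CPM the highest of its group. No explanation was tested.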

How the results depend on the processing

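No gene of the 10 was called under any of the 19 alternatives, and the lowest adjusted p was 0.0563, for Mertk without SE 2. Counts of genes called over the whole table were less stable. Against 13, DESeq2 called 346 (144 higher and 202 lower) and the fit without SE libraries 3, 4 and 5 called 41 (27 and 14). Leaving out 1 library in turn gave 7 to 225 calls, with 225 without SE 1 and 152 without SE 2. The other edgeR settings and limma voom stayed between 10 and 19. Replicate numbers are shared by the groups, but same-numbered libraries did not deviate together (r from -0.288 to 0.0715), and 1 of 5 SA libraries correlated best with its own number. With the replicate block 10 genes were called, 4 higher and 6 lower, and 0 of the 10 macrophage genes.

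The median over the 10 genes lay between -0.05 and 0.39 and was positive in 17 of 19 alternatives, the highest without SE 1. Signs of Csf1r and Adgre1 held in all 19. Those of Cd68, C1qa, C1qc, Ccr2 and Mertk changed in 1 each, of Mrc1 and C1qb in 2 and of Cd163 in 6. Cd68 was at 0.03 without SE 1. The fit without SE 3, 4 and 5 keeps 2 SE libraries, so a single library weighs heavily in it, and the cause of the shifts was not tested. Read depth did not limit these genes, whose lowest count was 335.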

Other observations

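Mast cell genes and adipocyte genes, which no comparison above used, varied between libraries much as the macrophage genes did. The mast cell list (7 of 7 found, none at 0 reads) was lowest in SA 1, at 227 CPM, SE 2, at 243 CPM, and SE 4, at 273 CPM, and lay between 343 and 421 CPM in the other 7 libraries. Mcpt4, a chymase gene, had a log2 fold change of 0.11 ± 0.16, Kit, the stem cell factor receptor gene, 0.14 ± 0.143 and the tryptase gene Tpsb2 -0.16 ± 0.191 (edgeR adjusted p = 0.807, 0.73 and 0.773). The adipocyte list (6 of 6, none at 0) was lowest in the same 3 libraries, at 1304, 1203 and 1089 CPM, against 1711 to 1882 CPM in the other 7. Skeletal muscle genes (6 of 6, none at 0) did not share this order, with 18910 CPM in SA 1, 20040 in SE 2 and 10410 in SE 4.

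The summed level of the neutrophil list was highest in the SA library where macrophage genes were low, and 2 of its genes made up most of it there. The sum (8 of 8 found, of which Ly6g, Mpo, Elane and Retnlg were under the expression filter) was 61.2 CPM in SA 1, 16.8 to 36.1 CPM in the other 4 SA libraries and 9.92 to 23.4 CPM in SE. S100a8 and S100a9, which stressed keratinocytes also express, gave 88.3% of it in SA 1 and 46.6% to 86.1% in the other 9 libraries, while Ly6g had 1 read in all 10 libraries. S100a8, S100a9 and Csf3r had log2 fold changes of 1.65 ± 0.494, 1.47 ± 0.409 and 0.78 ± 0.236 (edgeR adjusted p = 0.261, 0.215 and 0.27).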
